A study of Glycine max with 63 samples.

Results

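The values of 4 rows were followed across 63 soybean RNA-seq libraries: AtDGAT, the Arabidopsis DGAT1 transgene, and the 3 DGAT1 genes of soybean itself. The soybean copies are GLYMA_13G106100 (DGAT1A), GLYMA_17G053300 (DGAT1B) and GLYMA_09G065300 (DGAT1C), on chromosomes 13, 17 and 9 by the reference's gene names. The rows were taken by identifier from the 55899 named rows that every table lists, by a rule that uses no measured value. Each deposited value is an estimated number of reads for 1 gene in 1 library.

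DGAT1, diacylglycerol acyltransferase 1, is a membrane enzyme of the endoplasmic reticulum. It joins an acyl group from acyl-CoA to diacylglycerol, which is the last step in making triacylglycerol, the storage oil of seeds. WRI1, the other gene of the study's title, is a transcription factor that switches on glycolysis and fatty acid synthesis in filling seeds and so provides the acyl groups that DGAT1 uses.

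The study asked how Arabidopsis WRI1 and DGAT1 change gene expression during embryo development in soybean, with regard to seed oil and carbohydrate. Field libraries came from genotyped seeds bulked by plot, 3 plots for each line and stage: the parent cultivar Thorne (WT) and the lines W-1 and WD-1 at seed stages R5, R5/6 and R6, 27 libraries in all. Greenhouse libraries came from single embryos without seed coat or endosperm, 3 plants for each set, labelled WT, WD-1 or WD-2 at 24, 27, 30 or 33 days after pollination (DAP), 36 libraries in all. The growth protocol describes WD-1 and WD-2 as homozygous events of the T4 and T5 generations and says nothing of W-1. The sources used here name neither the constructs nor the promoters that drive the transgenes. In the field tables W-1 held AtWRI1 reads alone and WD-1 held reads of both transgenes.

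The labels and the names of the deposited tables disagree for the greenhouse. The names carry 3 prefixes (Wt, G and R) and 4 codes (T2 to T5), and the same 12 sets of 3 are labelled otherwise. The sets Wt-T2, Wt-T3, Wt-T4 and Wt-T5 are labelled WT 24 DAP, WD-1 24 DAP, WD-2 24 DAP and WT 27 DAP. The sets G-T2, G-T3, G-T4 and G-T5 are labelled WD-1 27 DAP, WD-2 27 DAP, WT 30 DAP and WD-1 30 DAP. The sets R-T2, R-T3, R-T4 and R-T5 are labelled WD-2 30 DAP, WT 33 DAP, WD-1 33 DAP and WD-2 33 DAP. Greenhouse sets are called here by the names of their tables, with no line or day read into a code, and the comparison by label is given too. Sets with the same code carry different labelled days under the 3 prefixes. Whether a code stands for the same age under each prefix is not known. A difference between prefixes therefore cannot be told apart from one of labelled day.

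Field libraries summed to between 1.17 and 36.2 M counts (1 M is 1000000), with 10 libraries under 10 M, and greenhouse libraries to between 3.02 and 23.6 M, with 5 under 10 M. Levels are given as counts per 1000000 (CPM) after scaling by TMM, which sets most genes level between libraries. Where the ranges of 2 groups are said not to overlap, the share of all genes that do the same was not counted. In 10 of the 12 R tables the 10 largest rows took over 50% of all counts, a share that no Wt or G table reached. TMM factors were 0.344 to 1.32 in R tables, 1.10 to 1.68 in Wt tables and 1.04 to 2.03 in G tables. Without TMM the median of all genes moved by -1.18 for R against Wt tables and by -1.31 for R against G tables. Seed storage genes were listed by identifier as tissue markers but their levels were not examined, so the labelled tissue was not checked. In bulk tissue, fewer cells that express a gene and less RNA per cell cannot be told apart.

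A gene's estimate is a whole number where none of its reads were divided with another gene. AtDGAT was a whole number of reads, within 0.01, in 63 of 63 libraries. That number takes in 18 field WT and W-1 libraries, 9 Wt tables and G-T5 replicate 2, all at 0 counts. A value of 0 is whole in any case and says nothing about division. DGAT1A was whole in 19 libraries and DGAT1B in 18, while their sum was whole in 53. In 35 libraries DGAT1A was not whole and the sum with DGAT1B was. The division of reads between DGAT1A and DGAT1B is therefore uncertain. DGAT1C was whole in 52 libraries.

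In field seeds AtDGAT was read in every WD-1 library and in no other. All 18 WT and W-1 libraries had 0 AtDGAT counts, which allows up to 0.0828 to 2.56 CPM per library. WD-1 held 6, 366 and 5 AtDGAT counts at R5, 213, 452 and 51 at R5/6, and 55, 803 and 77 at R6. As TMM-normalized CPM these were 0.145, 9.02 and 0.979 at R5. They were 5.05, 13.0 and 17.0 at R5/6 and 27.0, 44.8 and 27.8 at R6. The R6 libraries all stood above the R5/6 libraries, and R5 replicate 2 overlapped R5/6 while the other R5 libraries lay far below it.

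Against the most that the WT libraries of a stage could hold (3 counts over the 3 libraries together), AtDGAT in WD-1 was at least 143-fold higher at R5, at 4.68 ± 6.99 CPM of all counts (SD, n = 3). It was at least 413-fold higher at R5/6, at 13.2 ± 4.99 CPM, and at least 273-fold higher at R6, at 26.5 ± 6.30 CPM. Recomputed with each library left out, a step added after seeing the data, these bounds rested in part on single libraries. The R5 bound was 20.0-fold without WD-1 R5 replicate 2 and 86.9-fold without WT R5 replicate 1. The R5/6 bound was 272-fold without WT R5/6 replicate 3, and the R6 bound 32.6-fold without WT R6 replicate 3. Between R5 and R6 the AtDGAT level in WD-1 rose by 3.18 on the log2 scale (SE 0.88, adjusted p = 0.012, edgeR quasi-likelihood F-test). In this comparison 35.6% of the 38918 genes tested passed, and none of the 3 soybean copies did. The difference from R5 to R5/6 was 1.58 (SE 0.85, adjusted p = 0.294) and turned on a single library: it was 5.24 (adjusted p = 0.00314) without WD-1 R5 replicate 2. In that comparison 7.43% of genes passed. The R6 call was lost without WD-1 R6 replicate 2 (2.90, adjusted p = 0.0528) and with DESeq2 (3.21, adjusted p = 0.315), while the value was 6.83 without WD-1 R5 replicate 2.

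**Figure D1:**
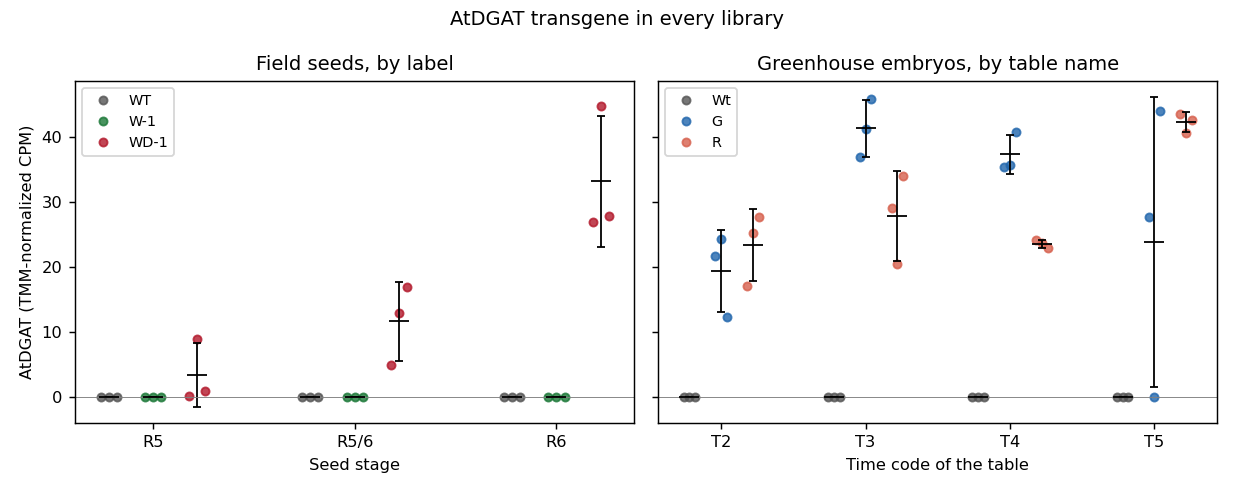
AtDGAT level in TMM-normalized CPM for each library of the field groups and of the greenhouse sets by table name. Points are libraries, and black bars give the mean ± SD of 3. WD-1 rises from R5 to R6, all field WT and W-1 libraries sit at 0, and 23 of the 24 G and R tables stand far above the Wt tables.

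In the greenhouse the transgene followed the names of the tables and not the labels. Of the 12 Wt tables, 9 had 0 AtDGAT counts and the other 3 had 1 or 2. AtDGAT was read in 23 of the 24 G and R tables. The 6 libraries labelled WT whose tables are G-T4 or R-T3 all carried AtDGAT, and the 6 labelled WD-1 or WD-2 whose tables are Wt-T3 or Wt-T4 held at most 2 counts. Libraries labelled WT and transgenic thus overlapped, while by table name the overlap came down to 1 library. That library, G-T5 replicate 2 (labelled WD-1 30 DAP), had 0 AtDGAT and 0 AtWRI1 counts in 5.82 M, which goes against the rest of the G tables. Results that turn on it are given with and without it.

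G tables held AtDGAT at 21.7, 24.3 and 12.3 TMM-normalized CPM at T2 and at 37.0, 41.3 and 45.8 at T3. They held 35.5, 35.8 and 40.8 at T4, and 27.8, 0 and 44.1 at T5. In the G tables T2 lay below T3 and T4 without overlap. R tables held 17.1, 25.3 and 27.8 at T2, 29.0, 20.5 and 34.1 at T3, 24.2, 23.7 and 23.0 at T4, and 43.6, 40.6 and 42.7 at T5. In the R tables T5 stood above the other codes.

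AtDGAT in R against G tables over the 4 codes differed by -0.04 on the log2 scale (SE 0.25, adjusted p = 0.916), with a 95% interval of -0.54 to 0.45, and 37.5% of the 34548 genes tested passed in that comparison. This average includes the G-T5 library at 0 and does not hold at each code. R lay below G without overlap at T3 (20.5 to 34.1 against 37.0 to 45.8) and T4 (23.0 to 24.2 against 35.5 to 40.8). At T2 and T5 the ranges overlapped. Without TMM the difference was -1.27 (adjusted p = 0.000266), near the shift of the median gene. From T2 to T5 AtDGAT differed by 0.36 in G (SE 0.48, adjusted p = 0.640) and by 0.84 in R (SE 0.51, adjusted p = 0.279). Without the library at 0 these were 0.89 (adjusted p = 0.00426) and 0.84 (adjusted p = 0.00879). The share of all genes that passed from T2 to T5 was 24.6% in G and 14.6% in R.

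Among the soybean copies, DGAT1C peaked at R5/6 in WT field seeds and DGAT1A rose from R5 to R5/6. DGAT1A stood at 10.2, 16.2 and 11.2 TMM-normalized CPM at R5, 24.8, 27.9 and 31.7 at R5/6, and 15.0, 17.5 and 25.3 at R6. DGAT1C stood at 7.01, 10.7 and 9.74 at R5, 33.1, 28.7 and 46.2 at R5/6, and 9.09, 5.38 and 15.9 at R6. For both copies every R5/6 library was above every R5 library, and for DGAT1C every R6 library was again below R5/6. WT R6 replicates 1 and 2 held only 17 and 4 DGAT1C counts, in 2.51 and 1.17 M. For DGAT1A, R6 replicate 3 lay above R5/6 replicate 1. From R5 to R5/6 DGAT1C rose 3.94-fold (log2 fold change 1.98, SE 0.27, adjusted p = 1.7e-05) and DGAT1A 2.25-fold (1.17, SE 0.22, adjusted p = 0.000478), in a comparison where 23.7% of genes passed. DGAT1B did not pass (0.26, SE 0.29, adjusted p = 0.554).

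From R5/6 to R6 DGAT1C in WT fell by 1.58 on the log2 scale (SE 0.30, adjusted p = 0.00218), where 7.07% of genes passed, and DGAT1A did not pass (-0.47, adjusted p = 0.260), though it did without TMM (-1.03, adjusted p = 0.00734). The DGAT1C value was -1.19 with libraries over 10 M counts alone, which leave only WT R6 replicate 3 at R6. Over the whole span from R5 to R6, where 33.0% of genes passed, DGAT1A in WT rose by 0.70 (SE 0.24, adjusted p = 0.0269), a value of -0.34 (adjusted p = 0.271) without TMM. This call was lost without WT R5 replicate 1, WT R5 replicate 3 or WT R6 replicate 3 (0.57, 0.62 and 0.34). DGAT1C did not pass between R5 and R6 in WT (0.40, adjusted p = 0.321). Since TMM factors were above 1 in all R5 libraries and below 1 in all R6 libraries, comparisons of these stages carry a scaling shift: the median of all genes moved by -1.02 in WT without TMM.

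In W-1, the line with AtWRI1 alone, DGAT1C was also highest at R5/6. It stood at 11.3, 9.87 and 9.90 TMM-normalized CPM at R5, 26.7, 21.8 and 22.5 at R5/6, and 17.1, 17.7 and 18.7 at R6, and the 3 stages did not overlap. It rose by 1.23 from R5 to R5/6 (SE 0.29, adjusted p = 0.00361), the only copy to pass where 20.3% of genes did, with a value of 0.53 (adjusted p = 0.144) without TMM. DGAT1A in W-1 stood at 9.71, 11.2 and 15.0 at R5, 22.0, 16.0 and 16.1 at R5/6, and 20.3, 17.0 and 20.5 at R6. Its later 2 stages overlapped and both lay above R5. From R5 to R6 DGAT1C rose by 0.79 (SE 0.29, adjusted p = 0.0289) and DGAT1A by 0.64 (SE 0.24, adjusted p = 0.0325), where 41.1% of genes passed, but both turned negative without TMM (-0.43 and -0.55, neither past the threshold), and DGAT1B then fell by 1.01 (adjusted p = 0.0138). The calls were lost without W-1 R6 replicate 1, W-1 R6 replicate 3 or W-1 R5 replicate 2 for either copy, without W-1 R5 replicate 1 for DGAT1A, and without W-1 R5 replicate 3 or W-1 R6 replicate 2 for DGAT1C, at 0.54 to 0.60 for DGAT1A and 0.76 to 0.82 for DGAT1C.

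In WD-1, which carries both transgenes, no copy passed the test between stages. DGAT1A stood at 13.4, 16.9 and 16.1 TMM-normalized CPM at R5, 12.2, 17.3 and 13.3 at R5/6, and 12.8, 21.5 and 14.1 at R6. DGAT1C stood at 6.88, 15.0 and 13.9 at R5, 11.1, 18.7 and 18.0 at R5/6, and 10.3, 14.7 and 10.8 at R6. The 3 stages overlapped for both copies. From R5 to R5/6 the log2 differences were -0.10 for DGAT1A, 0.01 for DGAT1B and 0.42 for DGAT1C, and from R5 to R6 they were 0.12, 0.38 and 0.08, none past the threshold. The 95% intervals of the R5/6 differences, -0.56 to 0.36 for DGAT1A and -0.14 to 0.97 for DGAT1C, lie below the rises measured in WT, and the test of the difference between the lines is given with the change from R5 to R5/6.

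The lines differed at R5/6. DGAT1A in WD-1 was 1.96-fold lower than in WT there (log2 fold change -0.97, SE 0.23, adjusted p = 0.028) and DGAT1C 2.29-fold lower (-1.20, SE 0.27, adjusted p = 0.0233), while 1.70% of all genes passed. For both copies the highest WD-1 library was below the lowest WT library. DGAT1B overlapped (-0.31, adjusted p = 0.745). Both calls were lost without WT R5/6 replicate 3 (-0.87 and -0.98) or WD-1 R5/6 replicate 1 (-0.85 and -0.97), that of DGAT1A also without WT R5/6 replicate 2 (adjusted p = 0.0690) or WD-1 R5/6 replicate 3 (-0.93), and both without TMM (-0.66, adjusted p = 0.157, and -0.91, adjusted p = 0.0755).

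Of the 3 WD-1 libraries at R5/6, 2 also stood apart in makeup. Replicates 1 and 2 had TMM factors of 1.49 and 1.28 and 18.3% and 19.8% of counts in the 10 largest rows, near the R5 libraries with factors of 1.13 to 1.55. WT at R5/6 had factors of 0.886 to 1.11 and shares of 25.6% to 34.4%. WD-1 R5/6 replicate 3 had a factor of 0.913, within the WT range, and a share of 41.3%, above it. It held DGAT1A at 13.3 and DGAT1C at 18.0 TMM-normalized CPM, below every WT library of that stage. The part of makeup in the lower DGAT1A and DGAT1C levels was not tested.

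The change of the WD-1 against WT difference from R5 to R5/6 was -1.56 for DGAT1C (SE 0.38, adjusted p = 0.0473) and -1.27 for DGAT1A (SE 0.32, adjusted p = 0.0523), where 0.889% of genes passed. The DGAT1C call was lost in 17 of the 27 fits that leave out 1 library, at values from -1.86 to -1.31 over all 27, the lowest without WD-1 R5 replicate 1. It was also lost without TMM (-1.19, adjusted p = 0.134), without WD-1 R5 replicate 2 and WD-1 R5/6 replicate 1 together (-1.08, adjusted p = 0.344), with only the compared groups fitted (-1.56, adjusted p = 0.0818) and with libraries over 10 M counts alone (-1.52, adjusted p = 0.124). DGAT1A passed with DESeq2 (-1.24, adjusted p = 0.0281), with no filter on low counts (-1.26, adjusted p = 0.0493) and in 7 of the 27 fits that leave out 1 library. At R5 and R6 no copy passed between WD-1 and WT, where 0.177% and 3.24% of genes did. The change of the difference from R5 to R6 did not pass for any copy either, against 1.22% of genes.

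Averaged over the 3 stages, no soybean copy passed in any pair of lines. WD-1 against WT gave -0.31 for DGAT1A (SE 0.14, adjusted p = 0.269), -0.06 for DGAT1B and -0.26 for DGAT1C, where 3.04% of genes passed. W-1 against WT gave -0.24, -0.11 and 0.04, where 2.53% passed. WD-1 against W-1 gave -0.07, 0.05 and -0.31, where 0.555% passed. The comparisons with WT share the WT libraries. The 95% interval for DGAT1A in WD-1 against WT ran from -0.59 to -0.04 before adjustment.

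W-1 at R5/6 lay between WT and WD-1 for DGAT1C. Its libraries did not overlap WT for DGAT1A or DGAT1C, but neither passed (-0.60, adjusted p = 0.585, and -0.59, adjusted p = 0.741), where 0.123% of genes did. W-1 replicates 2 and 3 held 45 and 71 DGAT1C counts there, in 2.60 and 3.34 M. The share of all genes without overlap was not counted, here or for the other ranges compared. At R6 the order of W-1 and WT was the other way. DGAT1C in W-1, at 17.1 to 18.7, stood above every WT library without passing (0.56, adjusted p = 0.376), where 4.45% of genes passed. This order rests on few reads: WT R6 replicates 1 and 2 held 17 and 4 DGAT1C counts, and W-1 R6 replicate 3 held 30. At R5 no copy passed, against 0.0385% of genes, and the change from R5 to R6 passed for none, against 1.69%. Over all 9 field groups DGAT1C was highest in WT R5/6 at 28.7 to 46.2 TMM-normalized CPM, followed by W-1 R5/6 at 21.8 to 26.7 and then W-1 R6, whose range overlapped that of WD-1 R5/6. DGAT1B, the lowest-count copy, ranged from 1.47 to 6.51 over the 27 field libraries and passed in none of these comparisons with TMM.

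**Figure D2:**
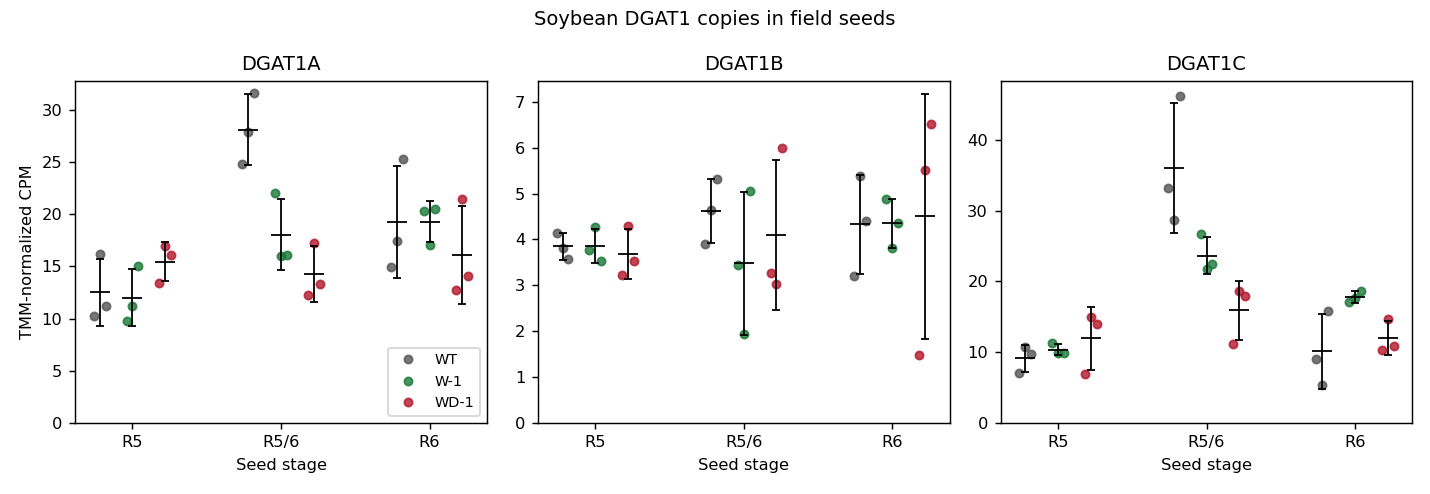
DGAT1A, DGAT1B and DGAT1C levels in TMM-normalized CPM for the field groups, by line and stage. Points are libraries, and black bars give the mean ± SD of 3. DGAT1A and DGAT1C in WT reach 24.8 to 31.7 and 28.7 to 46.2 at R5/6, above all WD-1 libraries of that stage, and DGAT1B overlaps between the lines.

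The reads of DGAT1C as a share of the 3 copies need no scaling between libraries. In WT the share was 32.8% to 39.8% at R5, 46.9% to 55.6% at R5/6 and 19.0% to 34.8% at R6. In W-1 it was 34.8% to 45.6%, 51.2% to 54.9% and 40.4% to 46.0%. In WD-1 it was 29.3% to 41.5%, 41.8% to 48.2% and 34.5% to 42.0%. All lines had their highest shares at R5/6, though in WD-1 that range overlapped R6. At R6 WT ranged lowest, but WT replicates 1 and 2 held only 51 and 21 reads of the 3 copies. WT R6 replicate 3, with 838 reads, stood at 34.8%, within the WD-1 range. These shares follow read numbers and not molecules per length, so they say nothing about which copy is the more abundant.

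Set against the soybean copies, the transgene went from a small fraction to parity in reads. The ratio of AtDGAT counts to the summed counts of the 3 copies was 0.00616, 0.249 and 0.0293 in WD-1 at R5. It was 0.190, 0.334 and 0.455 at R5/6, and 1.10, 1.07 and 0.885 at R6. R6 stood above R5/6 without overlap, and R5 replicate 2 lay within the range of R5/6. The ratio rose by 2.38 per stage on the log2 scale, with 0.5 added to each count (exact permutation test of stages among 9 libraries, two-sided, p = 0.00238). Leaving out single libraries gave 1.75 to 2.96, with exact p between 0.00179 and 0.0143. With the libraries over 10 M counts alone the slope was 2.40, and 5 libraries allowed only 30 arrangements (exact p = 0.167).

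**Figure D3:**
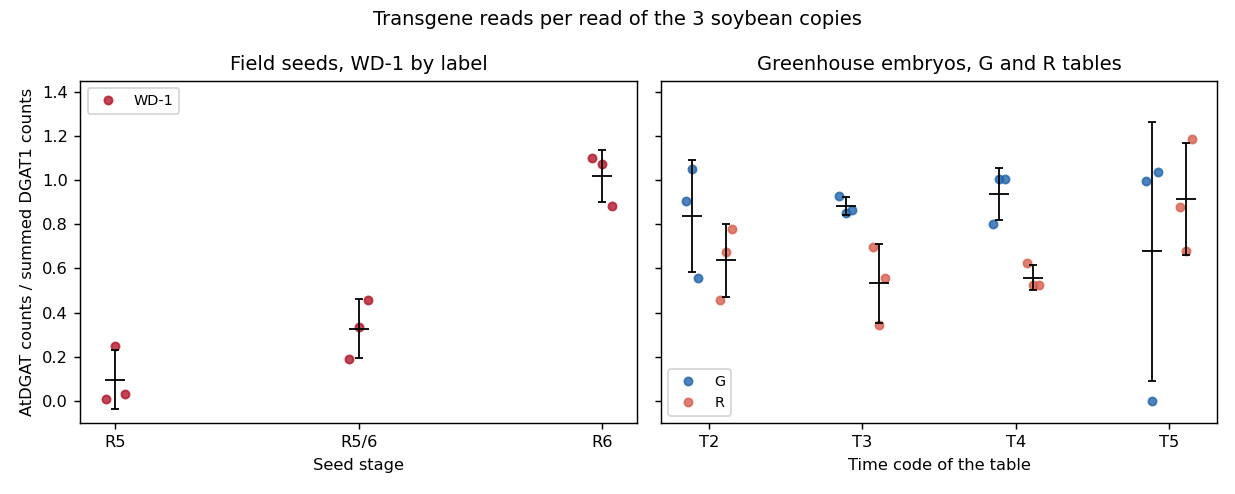
Ratio of AtDGAT counts to the summed counts of the 3 soybean DGAT1 copies in each WD-1 field library by stage and in each G and R table by code. Points are libraries, and black bars give the mean ± SD of 3. The field ratio goes from 0.00616 to 0.249 at R5 up to 0.885 to 1.10 at R6, and G-T5 replicate 2 is at 0.

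In G tables the ratio was 0.906, 1.05 and 0.557 at T2, 0.931, 0.853 and 0.865 at T3, 0.801, 1.01 and 1.01 at T4, and 0.997, 0 and 1.04 at T5. In R tables it was 0.458, 0.673 and 0.781 at T2, 0.699, 0.343 and 0.558 at T3, 0.624, 0.526 and 0.523 at T4, and 0.877, 0.681 and 1.19 at T5. At T3 and T4 every R table was below every G table, and at T2 and T5 they overlapped. On the log2 scale R minus G was -0.38 at T2 (exact permutation p = 0.4), -0.78 at T3 and -0.75 at T4 (both exact p = 0.1, the smallest that 3 against 3 can give). At T5 it was 2.84 (exact p = 0.7), and -0.19 (exact p = 0.7) without the library at 0.

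Over the codes together R minus G was 0.23 (exact permutation within codes, two-sided, p = 0.999), and -0.52 (exact p = 0.00193) without the library at 0. The ratio over codes thus takes its sign from G-T5 replicate 2. Being a ratio of counts within a library, it does not depend on TMM. Against the other transgene, AtDGAT had 4.20 to 14.0 counts per 100 AtWRI1 counts in field WD-1, 11.3 to 24.8 in the 11 G tables that hold it, and 13.9 to 27.4 in R tables.

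DGAT1A was lower in the G tables than in the Wt tables at every code. Wt tables held 14.4, 16.2 and 15.4 TMM-normalized CPM at T2, 28.7, 23.3 and 24.8 at T3, 29.8, 28.4 and 21.9 at T4, and 29.4, 25.7 and 21.7 at T5. G tables held 11.1, 9.79 and 9.56 at T2, 17.0, 22.8 and 21.9 at T3, 16.3, 12.9 and 15.9 at T4, and 13.8, 13.2 and 16.8 at T5. The G and Wt ranges did not overlap at any of the 4 codes, and the share of all genes without overlap was not counted. Over the codes DGAT1A was 1.55-fold lower in G (log2 fold change -0.64, SE 0.08, adjusted p = 3.05e-08), DGAT1B was lower by 0.46 (-0.46, SE 0.12, adjusted p = 0.0021) and DGAT1C by 0.33 (-0.33, SE 0.08, adjusted p = 0.00165). All 3 copies passed, where 46.5% of genes did. Without the G library that lacks both transgenes the values were -0.62, -0.44 and -0.32, all past the threshold, while without TMM DGAT1B (-0.37) and DGAT1C (-0.22) did not pass.

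By code, DGAT1A passed between G and Wt at T2 (-0.60, adjusted p = 0.01), T4 (-0.83, adjusted p = 0.000126) and T5 (-0.80, adjusted p = 0.000168), and not at T3 (-0.32, adjusted p = 0.155). The shares of genes that passed at T2, T3, T4 and T5 were 10.1%, 21.3%, 27.7% and 32.5%. The T2 call was lost without Wt-T2 replicate 2 (-0.56, adjusted p = 0.0547) or G-T2 replicate 2 (-0.57, adjusted p = 0.0511). DGAT1C passed at T2 (-0.82, adjusted p = 0.00105), at 10.9 to 11.4 in G against 18.7 to 20.1 in Wt, and at no other code, with a difference of 0.01 at T4 (adjusted p = 0.966). At T5 the DGAT1C difference was -0.43 (SE 0.17, adjusted p = 0.0518). It passed with DESeq2 (-0.44, adjusted p = 0.0304) and in 13 of the 36 fits that leave out 1 library, among them that without G-T5 replicate 3 (-0.69, adjusted p = 0.00336). DGAT1B passed at no single code in the fit with all libraries, at -0.70 at T2 (adjusted p = 0.0743), -0.59 at T4 (adjusted p = 0.0711) and -0.57 at T5 (adjusted p = 0.0679). It passed at T2 with only the compared groups fitted (-0.69, adjusted p = 0.0233). Leaving out 1 library, it passed in 1 fit at T2, 3 at T4 and 3 at T5, among them T4 without Wt-T4 replicate 3 (-0.83, adjusted p = 0.017) and T5 without G-T5 replicate 3 (-1.01, adjusted p = 0.0031). Whether the differences change from T2 to T5 did not pass for any copy in that test (DGAT1C 0.39, SE 0.24, adjusted p = 0.379). Without TMM the calls at single codes were lost, and that of DGAT1A over codes was kept (-0.52, adjusted p = 0.0271).

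R tables, set against the same Wt tables, held DGAT1A at 12.8, 15.1 and 14.1 at T2 and 17.8, 22.8 and 24.5 at T3. They held 15.0, 18.0 and 16.4 at T4, and 16.9, 23.5 and 14.2 at T5. R was below Wt without overlap at T4, and overlapped it at T2, T3 and T5. DGAT1A in R was lower over the codes (-0.37, SE 0.08, adjusted p = 0.000197), where 60.6% of genes passed, with a value of -1.58 without TMM. DGAT1B did not pass (-0.22, adjusted p = 0.177), and neither did DGAT1C, whose difference of 0.18 (adjusted p = 0.0707) turned to -1.03 (adjusted p = 1.21e-06) without TMM. The DGAT1C value passed without R-T3 replicate 1, R-T4 replicate 1 or R-T5 replicate 3 (0.22, 0.21 and 0.24).

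By code, no copy passed at T2 or T3, where 20.0% and 29.4% of genes did. At T4 DGAT1A (-0.70, adjusted p = 0.000966) and DGAT1B (-0.72, adjusted p = 0.0421) were lower, where 40.9% passed, and at T5 DGAT1A was (-0.45, adjusted p = 0.0318), where 35.0% passed. Without TMM these were -2.26, -2.31 and -1.17, all past the threshold. The DGAT1B call was lost in 11 fits that leave out 1 library, most at -0.68, but at -0.46 without Wt-T4 replicate 1 and -0.48 without R-T4 replicate 1. DESeq2 did not call it (-0.69, adjusted p = 0.0594). The T5 call was lost without Wt-T5 replicate 1 or 2 or R-T5 replicate 1 or 3, at -0.45 to -0.34, and with libraries over 10 M counts alone (-0.35, adjusted p = 0.113). R and G share the Wt tables, and set against each other R was higher in DGAT1A by 0.26 (SE 0.08, adjusted p = 0.0126) and in DGAT1C by 0.51 (SE 0.09, adjusted p = 2.45e-05), directions that reversed without TMM (-1.06 and -0.81, adjusted p = 7.27e-07 and 4.54e-05). DGAT1B did not pass with TMM (0.25, adjusted p = 0.166) and was -1.10 (adjusted p = 9.15e-07) without it.

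**Figure D4:**
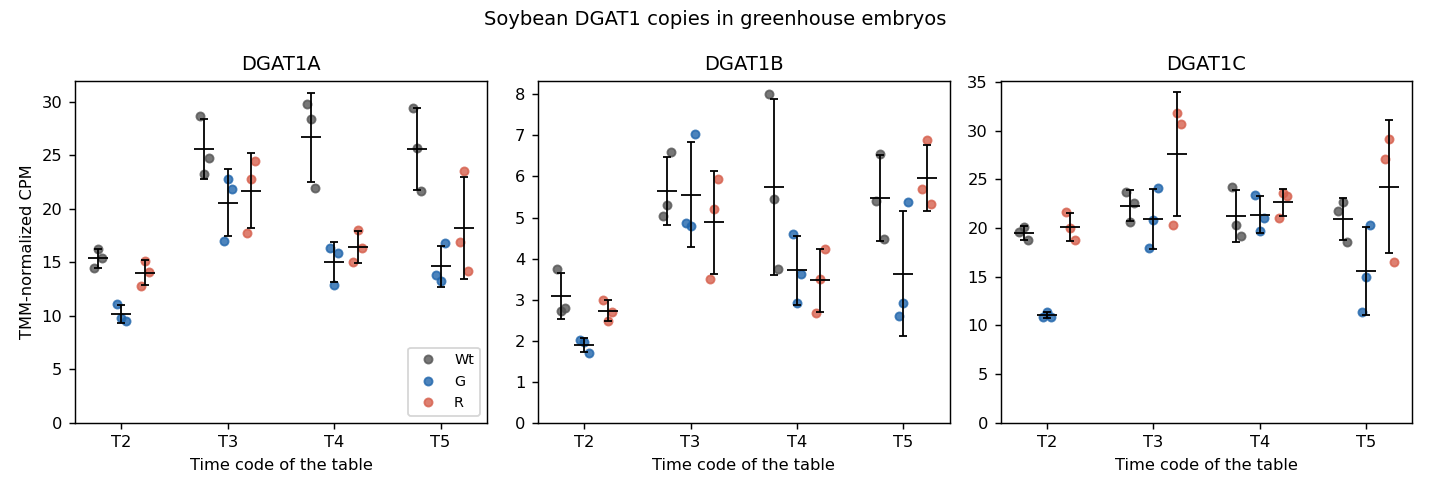
DGAT1A, DGAT1B and DGAT1C levels in TMM-normalized CPM for the greenhouse sets, by table prefix and code. Points are libraries, and black bars give the mean ± SD of 3. G lies below Wt for DGAT1A at all 4 codes, and the place of R for DGAT1A and DGAT1C relative to G reverses without TMM.

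**Figure D5:**
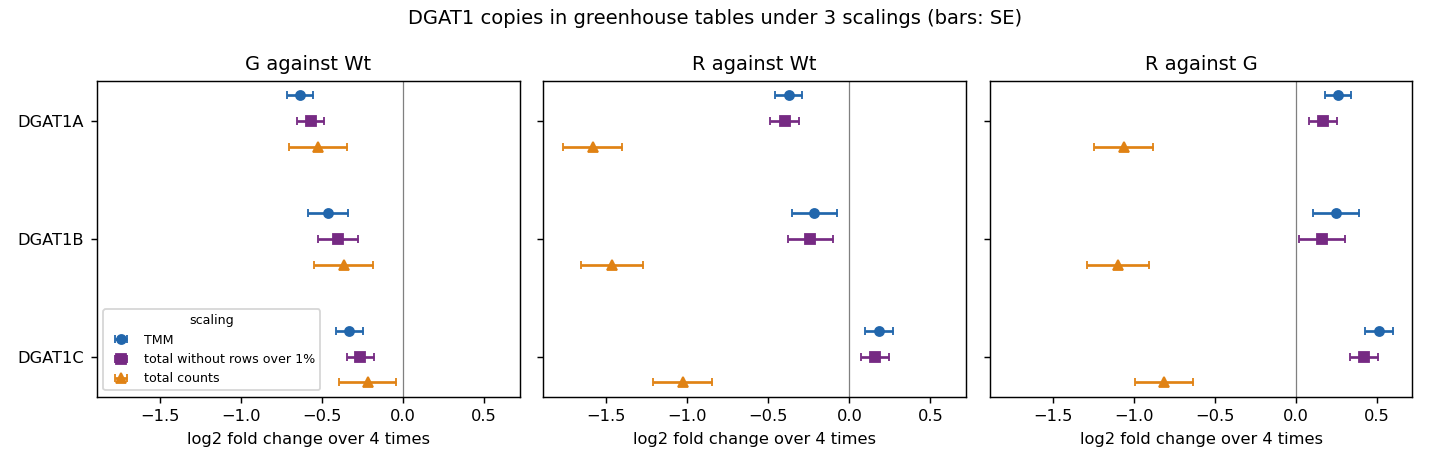
Log2 difference of the soybean copies in G and R tables over codes under 3 scalings: TMM, total counts without TMM, and totals without rows that exceed 1% of counts. Points are fitted values, and bars give the SE. DGAT1A in G against Wt is negative under each, while all copies in R against G turn from positive with TMM to -1.06, -1.10 and -0.81 on total counts.

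The shares of the copies, free of scaling, separated Wt from R. Over T3 to T5, DGAT1A made up 45.9% to 52.5% of DGAT1 reads in the 9 Wt tables, 36.3% to 49.7% in G and 34.0% to 42.8% in R. DGAT1C made up 37.5% to 42.8% in Wt, 40.9% to 55.5% in G and 45.7% to 54.5% in R. Wt and R did not overlap for either copy, and G overlapped both. R-T5 replicate 3 and R-T3 replicate 1 held only 81 and 166 reads of the 3 copies. The DGAT1A share also rests on the uncertain division of reads with DGAT1B. The codes T3 to T5 were pooled after their values were seen, since Wt at T2 stood at 38.2% to 41.7% for DGAT1A and 50.7% to 51.9% for DGAT1C, so these ranges are a description with no test.

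Between T2 and T5 DGAT1B rose under all 3 prefixes, each time with a call that rests on single libraries. In Wt tables DGAT1A rose by 0.73 (SE 0.16, adjusted p = 0.000498) and DGAT1B by 0.84 (SE 0.24, adjusted p = 0.00797), and DGAT1C did not pass (0.10), where 28.0% of genes did. The DGAT1B call was lost without Wt-T5 replicate 2 (0.69, adjusted p = 0.0544). In G tables DGAT1A rose by 0.53 (adjusted p = 0.0121), DGAT1B by 0.96 (adjusted p = 0.00503) and DGAT1C by 0.49 (adjusted p = 0.0335). Without G-T5 replicate 3 these were 0.42, 0.52 and 0.23, none past the threshold. The DGAT1A call was also lost without G-T2 replicate 3 (0.50), and that of DGAT1C in 8 fits in all, among them each that leaves out a G-T2 library. Another of these fits left out G-T5 replicate 2, the library without transgene counts (DGAT1C 0.52, adjusted p = 0.0502). In R tables DGAT1B rose by 1.17 (SE 0.30, adjusted p = 0.00722), a call lost without R-T5 replicate 2 (1.00, adjusted p = 0.0564), and DGAT1A and DGAT1C did not pass (0.42 and 0.34). Without TMM the DGAT1B rise in R was 1.70 (adjusted p = 0.00627), and none of the Wt or G calls between T2 and T5 was kept.

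Grouped by the labels, the same greenhouse libraries gave another picture. WD-1 against WT over days was -0.37 for DGAT1C (SE 0.09, adjusted p = 0.0135), the only copy to pass, where 3.38% of genes did. The DGAT1C call was lost without TMM (-0.35, adjusted p = 0.846). DGAT1A stood at -0.26 (adjusted p = 0.0635) and DGAT1B at -0.32 (adjusted p = 0.185). DGAT1A passed with DESeq2 (-0.25, adjusted p = 0.0394) and in 3 of the 36 fits that leave out 1 library, and DGAT1B in 1. WD-2 against WT gave 0.04, 0.18 and -0.03 for DGAT1A, DGAT1B and DGAT1C, none past the threshold, where 3.70% of genes passed. These comparisons set AtDGAT carriers and non-carriers together on both sides.

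The genes whose log2 levels ran most like those of the members are given as a description, by Pearson's r over libraries that differ in depth and TMM factor. AtWRI1 was the most like AtDGAT over the 9 WD-1 field libraries (r = 0.986), followed by GLYMA_17G104600 (0.979). Over the 24 G and R tables AtWRI1 was again first (0.990, then GLYMA_08G171100 at 0.982), but that value rests on the library at 0, and over the other 23 tables AtWRI1 stood at 0.802, below GLYMA_04G229500 (0.933) and GLYMA_11G124400 (0.928). In the field DGAT1A ran most like GLYMA_09G256300 (0.865) and GLYMA_08G048900 (0.834), DGAT1B like GLYMA_06G055800 (0.713) and GLYMA_15G006100 (0.698), and DGAT1C like GLYMA_17G073900 (0.879) and GLYMA_11G201700 (0.866), over 27 libraries. In the greenhouse, over 36 libraries, the nearest were GLYMA_11G199100 (0.894) and GLYMA_15G034600 (0.890) for DGAT1A, GLYMA_05G116900 (0.847) and GLYMA_15G105100 (0.839) for DGAT1B, and GLYMA_15G100900 (0.850) and GLYMA_06G162500 (0.828) for DGAT1C. Among the copies themselves DGAT1A and DGAT1C were the most alike in the field (0.725), and DGAT1A and DGAT1B in the greenhouse (0.838, but 0.273 in the field). The counting divides reads between DGAT1A and DGAT1B, and the part of this in their likeness was not tested.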

How the data were processed

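RNA of 63 libraries was measured by sequencing, and the authors deposited 1 table of estimated counts of reads per gene for each, without normalization, per the file headers. The tools listed in the submitters' processing notes are kallisto 0.43.1, sleuth 0.30.0, FastQC 0.11.5 and R 3.6.3, with no roles. The sources used here do not give a genome build, an annotation or how transcripts were summed to genes. A row without a gene name was left out, and counts were rounded to whole numbers.

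Genes kept by filterByExpr were fitted in edgeR 4.0.16 (R 4.3.3), 1 model for 27 field libraries and 1 for 36 greenhouse libraries. After TMM scaling, group means were compared by a two-sided quasi-likelihood F-test. A gene passed at an adjusted p under 0.05 (Benjamini-Hochberg, over the whole table). Adjusted p-values are edgeR's unless DESeq2 1.42.0 is named. Each SE is the log2 fold change divided by the square root of F. Bounds against 0 counts use a floor of 3 counts and cover counting error only. Log2 ratios were tested by exact permutation (numpy 2.4.6, Python 3.11.15). The fit was tested on simulated counts.

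Replicates are separate plots or plants. Same-numbered libraries did not deviate together (median correlation -0.00085 in the field, 0.0128 in the greenhouse), so no block was used. Field libraries were grouped by label. Greenhouse libraries were grouped by the names of their tables, as the rule for these genes asks, and also by label.

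The members and lists were chosen with earlier results of these data known. The named genes are the members, AtWRI1 and, for each member, the 2 genes of highest Pearson's r with a mean of at least 5 CPM. The identifiers matched 0 of the 59048 genes in the reference (Glycine_max_v4.0), so no sequence or coordinate is given. Lists of oil pathway genes and tissue markers were not applied, though seed storage genes were listed by identifier. Alternatives were DESeq2, no TMM, no filter on low counts, libraries over 10 M counts (1 M is 1000000), the compared groups alone, a replicate block and leaving out each library. Added after seeing the data were totals without rows over 1% of counts, DGAT1A and DGAT1B as 1 row, 2 WD-1 libraries left out together and the change from R5 to R5/6.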

Additional observations from a re-analysis of the deposited data

Results flagged for a closer look

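For DGAT1C in field seeds, the change of the difference between WD-1 and WT from R5 to R5/6 passed in the main fit. The change of the log2 difference was -1.56 (SE 0.38, adjusted p = 0.0473, edgeR quasi-likelihood F-test on the interaction). At R5 the WD-1 libraries held 6.88, 15.0 and 13.9 TMM-normalized CPM and the WT libraries 7.01, 10.7 and 9.74. At R5/6 they held 11.1, 18.7 and 18.0 against 33.1, 28.7 and 46.2. The interaction was added after seeing the data, and its call was lost in 17 of the 27 fits that leave out 1 library. It was also lost without TMM (-1.19, adjusted p = 0.134) and without WD-1 R5 replicate 2 and WD-1 R5/6 replicate 1 together (-1.08, adjusted p = 0.344). Neither the compared groups alone (adjusted p = 0.0818) nor libraries over 10 M counts alone (adjusted p = 0.124) kept it.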

How the results depend on the processing

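Without TMM, on total counts, several greenhouse R values and field changes from R5 to R6 turned direction. R against G gave -1.06, -1.10 and -0.81 for DGAT1A, DGAT1B and DGAT1C and -1.27 for AtDGAT. R against Wt gave -1.46 for DGAT1B and -1.03 for DGAT1C over codes, the latter -1.49, -0.77, -1.46 and -0.40 at T2, T3, T4 and T5. R6 against R5 gave -0.34, -0.90 and -0.66 for DGAT1A, DGAT1B and DGAT1C in WT, -0.55, -1.01 and -0.43 in W-1, and -0.36 for DGAT1B in WD-1. G against Wt lost its calls for DGAT1B (-0.37) and DGAT1C (-0.22), T5 against T2 in G was 0.20, 0.61 and 0.15 for DGAT1A, DGAT1B and DGAT1C, and in Wt it was 0.43 and 0.56 for DGAT1A and DGAT1B. These shifts follow the median of all genes, which moved by -1.31 for R against G and -1.02 for WT R6 against R5. Totals without rows over 1% of counts kept the directions and lost the calls of DGAT1A in R against G (0.17), of R6 against R5 for DGAT1A in WT (0.50) and W-1 (0.30) and DGAT1C in W-1 (0.43), and of T5 against T2 for DGAT1A and DGAT1C in G (0.38, 0.33) and DGAT1B in Wt (0.55).

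DESeq2 lost R6 against R5 for AtDGAT in WD-1 (3.21) and for DGAT1A and DGAT1C in W-1 (0.50, 0.65), and called DGAT1C in R against Wt (0.20). With libraries over 10 M counts AtDGAT in WD-1 (3.28), DGAT1A and DGAT1C in W-1 (0.49, 0.80) and the ratio slope (2.40) no longer passed, while AtDGAT from T2 to T5 in G (0.89) and R (0.83), DGAT1A and DGAT1C from T2 to T5 in R (0.51, 0.49) and DGAT1C in R against Wt (0.29) did. Fitting the compared groups alone lost DGAT1A in WT R6 against R5 (0.61) and DGAT1B and DGAT1C from T2 to T5 in G (0.93, 0.47) and called AtDGAT from T2 to T5 in R (0.76). Grouping by label gave -0.26 and -0.32 for DGAT1A and DGAT1B in WD-1 against WT, and 0.040 and 0.18 in WD-2 against WT. The cause of the changes under DESeq2 and the groups alone was not tested.

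Leaving out single libraries moved the R6 against R5 value from 0.34 to 0.93 for DGAT1A in WT, 0.54 to 0.85 and 0.76 to 0.84 for DGAT1A and DGAT1C in W-1, and 2.57 to 6.83 for AtDGAT in WD-1. From T2 to T5 it moved AtDGAT from -0.33 to 0.89 in G and 0.63 to 0.99 in R. For DGAT1A, DGAT1B and DGAT1C in G the ranges were 0.42 to 0.60, 0.52 to 1.22 and 0.23 to 0.69, for DGAT1B in R 1.00 to 1.24 and in Wt 0.69 to 0.98. It moved DGAT1C in R against Wt from 0.16 to 0.24, DGAT1B in R against G from 0.18 to 0.35, and the log2 ratio of R minus G from -0.52 to 0.61. A replicate block changed 2 of 110 results: DGAT1A then passed in W-1 from R5 to R5/6 (0.66) and in the change of the WD-1 against WT difference from R5 to R5/6 (-1.28, adjusted p = 0.0421). A pseudocount of 1 changed none of the 6 results it touches. Counting DGAT1A and DGAT1B as 1 row leaves the counts of DGAT1C and AtDGAT as they were. Their 40 unchanged results therefore say nothing about the division of reads. The joint row was not compared with DGAT1A or DGAT1B. How the results of those 2 copies depend on the division of reads was not tested. Shares of the copies per coding length were not run. The 10 field libraries under 10 M counts include WD-1 R5 replicate 3, with 5 AtDGAT counts, which limits folds against R5.

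The number of all genes past the threshold moved too. Without TMM it went from 16068 to 7882 for G against Wt and from 12965 to 33514 for R against G over codes. From T2 to T5 it went from 9682 to 4011 in Wt, 8487 to 3292 in G and 5046 to 3173 in R, and from R5 to R6 from 12826 to 22179 in WT and 16000 to 25615 in W-1. By label it went from 1167 to 9 for WD-1 and from 1279 to 130 for WD-2. For WD-1 against WT at R5/6 it went from 662 to 138 without the 2 WD-1 libraries and to 1235 with libraries over 10 M counts. For WD-1 against W-1 over stages it went from 216 to 531 without TMM and to 942 with libraries over 10 M counts.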
